A study of Mus musculus with 36 samples.

Results

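The aryl hydrocarbon receptor system was followed through 6 genes in mouse embryonic fibroblasts: the receptor Ahr, its dimerisation partner Arnt, the repressor Ahrr, and the target genes Cyp1a1, Cyp1b1 and Tiparp. The 6 genes were taken by symbol from a table of 36856 gene symbols, and all 6 were found. The set was chosen by a measured value, the log2 fold change of BtdCPU against DMSO in Perk-null cells: among genes called there with a mean log2 counts-per-million (CPM) of at least 2, Cyp1b1 had the lowest. The other 5 genes were added for their known place in the pathway. Its values in the Perk-null DMSO and Perk-null BtdCPU libraries are therefore given as a description with no test, and no test is given for any of the 6 genes in that comparison.

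RNA was sequenced from fibroblasts labelled WT and from fibroblasts labelled PERK -/-, called Perk-null below, which lack the endoplasmic reticulum stress kinase PERK encoded by Eif2ak3. Each genotype received DMSO (the vehicle), thapsigargin (Tg), BtdCPU, halofuginone (Hf), BtdCPU with Tg, or Hf with Tg, with 3 libraries in each of the 12 groups and 36 libraries in all. Tg blocks the calcium pump of the endoplasmic reticulum, BtdCPU is described as an activator of the eIF2 alpha kinase HRI, and Hf inhibits prolyl-tRNA synthetase and thereby activates the kinase GCN2. Doses, times, the sex and origin of the embryos, how the PERK -/- cells were made and whether replicates were separate cultures are not given in the sources used here. The p-values therefore rest on the spread between libraries of a group, which may be technical, estimated for each gene over all 12 groups together. Genotype cannot be told apart from the history of each line.

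The aryl hydrocarbon receptor is a transcription factor of the bHLH-PAS family that waits in the cytosol in a chaperone complex until a ligand binds. Ligands include dioxins, polycyclic aromatic hydrocarbons and tryptophan derivatives. The receptor then enters the nucleus, pairs with ARNT and binds the xenobiotic response element, whose core is GCGTG. Cyp1a1 and Cyp1b1 encode cytochrome P450 enzymes that oxidise aromatic compounds, Ahrr encodes a repressor that competes with the receptor for ARNT, and Tiparp encodes a mono-ADP-ribosyltransferase that dampens the receptor. In fibroblasts and other mesenchymal cells Cyp1b1, rather than Cyp1a1, is known for substantial expression without added ligand.

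Deposited counts summed to between 32454257 and 37178107 per library. Eif2ak3, the gene deleted by label, lay at 31.1 ± 1.1 CPM (SD, n = 3) in WT DMSO and at 9.95 ± 0.760 (SD, n = 3) in Perk-null DMSO, and was lower in Perk-null than in WT libraries under each treatment. In Perk-null cells it lay at 27.4 ± 3.31 CPM with Tg and at 32.1 ± 3.71 with Hf and Tg (SD, n = 3). Its RNA was thus present there, and these levels alone do not show loss of PERK. Which part of the gene was deleted is not given in the sources used here. All 10 fibroblast markers looked for had a mean of at least 1 CPM, and their summed level ran from 13373 to 39001 CPM. Lum, the weakest, ran from 0 to 14.6 CPM with a median of 0.489. Summed markers of endothelium stayed between 0.155 and 5.06 CPM, of epithelium between 0.114 and 23.6, of blood between 2.2 and 22.9 with Adgre1 at 0 in all libraries, of muscle between 0 and 0.621, and of neurons between 10.9 and 227. The neuronal sum was nearly all Tubb3 (10.3 to 227 CPM), with Rbfox3 at most 0.11 and Elavl3 at most 0.708. The part of these markers in the results was not tested. In such bulk libraries, fewer cells expressing a gene and less of its RNA per cell cannot be told apart.

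The 250 bases before the transcription start of each target gene and of Ahrr are shown to mark matches to the core element. Sequence further upstream was not searched, so elements there would be missed. They are RefSeq sequences of GRCm38.p6, written 5′ to 3′ on the strand of the gene, with GCGTG or its reverse complement CACGC in capitals. The Cyp1b1 stretch is chr17:79715062-79715311 on the minus strand, the Cyp1a1 stretch chr9:57697363-57697612 on the plus strand, the Tiparp stretch chr3:65528197-65528446 on the plus strand, and the Ahrr stretch chr13:74292332-74292581 on the minus strand.
Cyp1b1: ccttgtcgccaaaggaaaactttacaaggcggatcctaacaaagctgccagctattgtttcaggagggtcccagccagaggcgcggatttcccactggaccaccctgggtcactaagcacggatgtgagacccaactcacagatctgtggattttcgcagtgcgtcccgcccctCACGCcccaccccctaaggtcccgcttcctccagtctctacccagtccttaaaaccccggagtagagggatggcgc
Cyp1a1: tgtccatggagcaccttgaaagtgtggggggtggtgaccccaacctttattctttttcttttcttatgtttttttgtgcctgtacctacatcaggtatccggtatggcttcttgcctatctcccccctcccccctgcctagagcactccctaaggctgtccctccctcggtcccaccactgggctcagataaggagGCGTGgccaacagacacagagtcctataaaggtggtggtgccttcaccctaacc
Tiparp: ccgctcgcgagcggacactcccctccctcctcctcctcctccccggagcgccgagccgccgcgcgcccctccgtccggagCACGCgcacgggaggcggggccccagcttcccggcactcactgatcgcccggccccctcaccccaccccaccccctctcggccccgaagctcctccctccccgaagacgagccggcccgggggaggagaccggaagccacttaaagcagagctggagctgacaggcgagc
Ahrr: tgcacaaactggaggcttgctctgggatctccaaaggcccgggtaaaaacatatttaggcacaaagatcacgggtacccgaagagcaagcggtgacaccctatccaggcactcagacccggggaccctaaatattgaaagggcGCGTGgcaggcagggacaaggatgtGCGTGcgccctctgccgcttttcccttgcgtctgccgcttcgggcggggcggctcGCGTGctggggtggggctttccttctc
Cyp1b1 held 1 core, on the reverse strand at bases -76 to -72 from the start. Cyp1a1 held 1 forward core at -54 to -50, and Tiparp 1 reverse core at -170 to -166. Ahrr held 3 forward cores, with first bases at -107, -82 and -27. The Arnt stretch, chr3:95434140-95434389 on the plus strand, held 1 forward core at -29 to -25, and Ahr was not looked up because the table used held no entry for it. All 5 members with a promoter sequence thus held the core on either strand, against 28.2% of 32851 promoters of the same length, and 2.77% of those promoters held at least 3 cores as Ahrr did. Of 8 other receptor targets with a promoter in the table, from the list described further on, 1 held the core. A match of 5 letters is a description of the sequence and not a binding site.

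**Figure D1:**
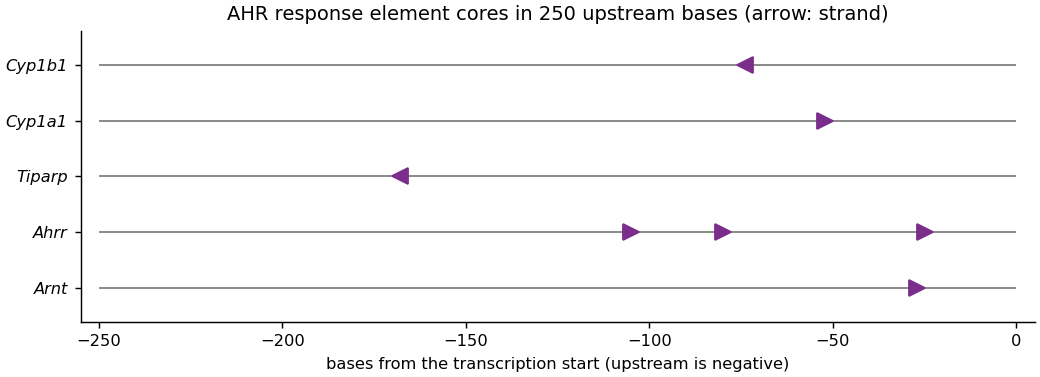
Position of GCGTG on the forward strand (arrow to the right) or the reverse strand (arrow to the left) in the 250 bases before the start of 5 members, with distance from the transcription start on the horizontal axis. Ahrr holds 3 cores and each of the others 1.

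All 6 genes passed the filter on low counts, Cyp1a1 and Ahrr only through the groups in which they were high. They lay at different depths of coverage. Per kilobase of exon, group means of Tiparp ran from 7.51 to 91.4 CPM per kb, of Arnt from 8.13 to 19.1, of Ahr from 0.662 to 6.13, of Cyp1b1 from 0.291 to 5.58, of Cyp1a1 from 0.0118 to 2.84 and of Ahrr from 0.00953 to 0.12. Tiparp and Arnt were thus the most abundant transcripts of the set, and Ahrr, with 1 to 48 counts in a library, the rarest. Between single libraries the highest CPM was 28.7 times the lowest for Cyp1b1, 18 times for Tiparp, 16 times for Ahr and 2.59 times for Arnt.

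**Figure D2:**
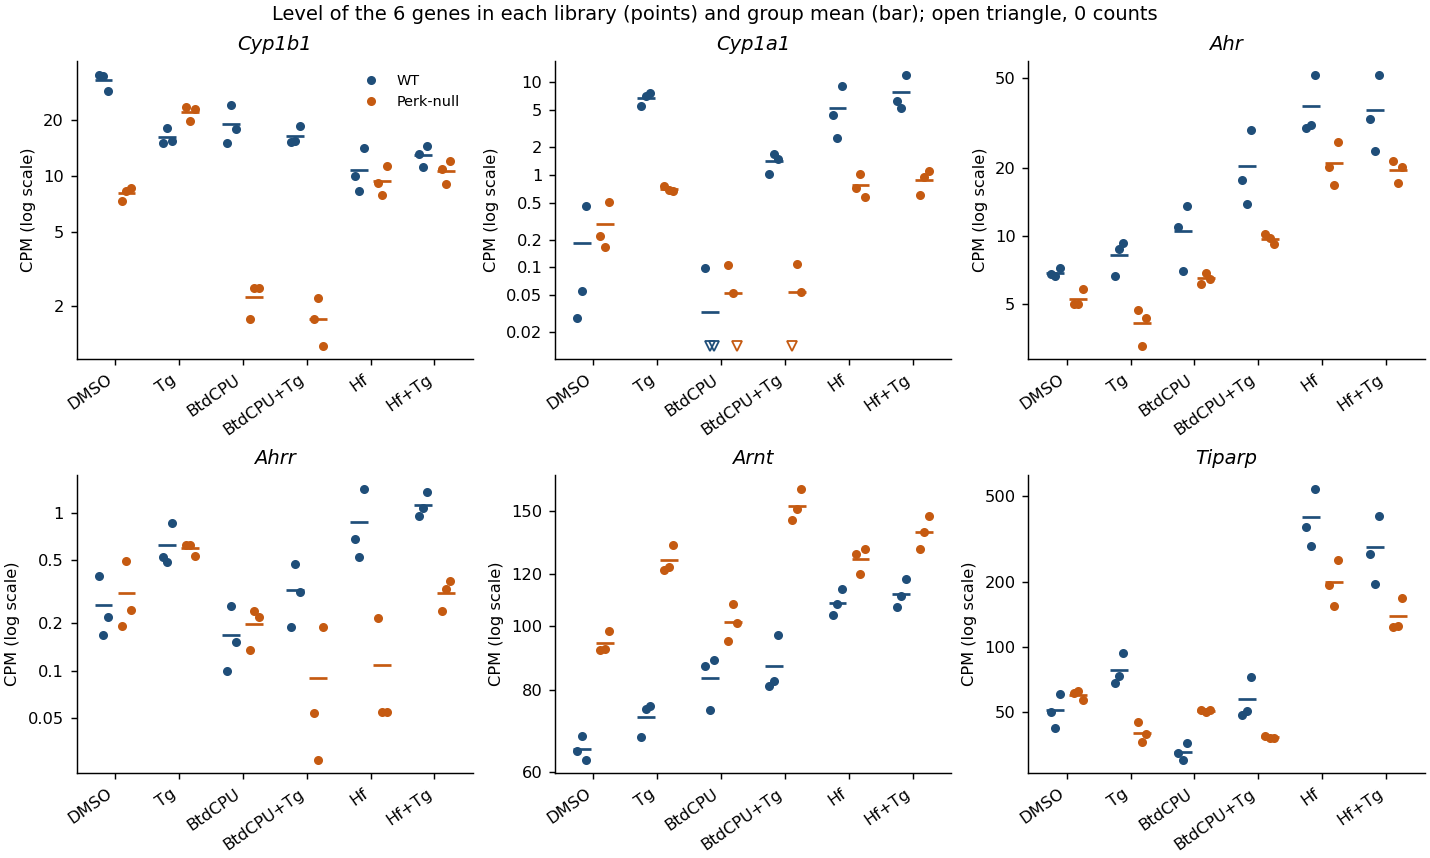
CPM on a log axis in each library (points, 3 per group) and group mean (bars) for the 6 genes, by treatment and genotype, with open triangles for libraries with 0 counts. Cyp1b1 is lowest in Perk-null cells with BtdCPU, with or without Tg, whereas Ahr and Tiparp are highest in WT cells with Hf, with or without Tg.

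In WT cells the 6 genes did not move as one. Since Cyp1a1 and Ahrr passed the filter through groups in which they were high, the counts of members are a description. With Tg, 3 of 6 rose and 1 fell (edgeR, adjusted p under 0.05), while 24.9% of all 16065 tested genes were called higher and 22.7% lower. With BtdCPU, 1 rose and 2 fell, against 12.9% of all genes called higher and 9.31% lower. With Hf, 5 rose and 1 fell, against 34.7% higher and 33.4% lower. BtdCPU added to Tg raised 1 and lowered 1, against 1.29% higher and 1.02% lower, and with the replicate number as a block the genes called there went from 372 to 2079. Hf added to Tg raised 3, against 22.8% higher and 22.5% lower. The members' share with Hf alone therefore stands on a background in which most genes were called.

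In Perk-null cells, Tg raised 1 and lowered 1 of the 5 genes tested, while 15.2% of all genes were called higher and 12.7% lower. Hf raised 3 and lowered 1 of 5, against 21.2% higher and 21% lower. BtdCPU added to Tg raised 2 and lowered 3 of 6, against 17.3% higher and 18.3% lower, and Hf added to Tg raised 2 and lowered 1, against 25.2% higher and 27.5% lower. In the comparison that chose the set, BtdCPU against DMSO, 2.55% of all genes were called higher and 1.04% lower. The difference between the genotypes in each response was tested as an interaction, Perk-null minus WT. For Tg it was lower in 2 of 5 genes tested, against 19.5% of all genes higher and 18.6% lower. For Hf it was lower in 4 of 5, against 17.5% higher and 17.5% lower. For BtdCPU added to Tg it was lower in 1 of 6, against 10.7% higher and 10.1% lower, and for Hf added to Tg in 3 of 6, against 15.9% higher and 16.9% lower. For BtdCPU alone it passed in 0 of 5 by edgeR, 1 with an unadjusted p under 0.05 and 0 of 4 by DESeq2, against 0.0373% of all genes higher and 0.162% lower. These comparisons share control libraries, so their values are set side by side without a measure of likeness.

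**Figure D3:**
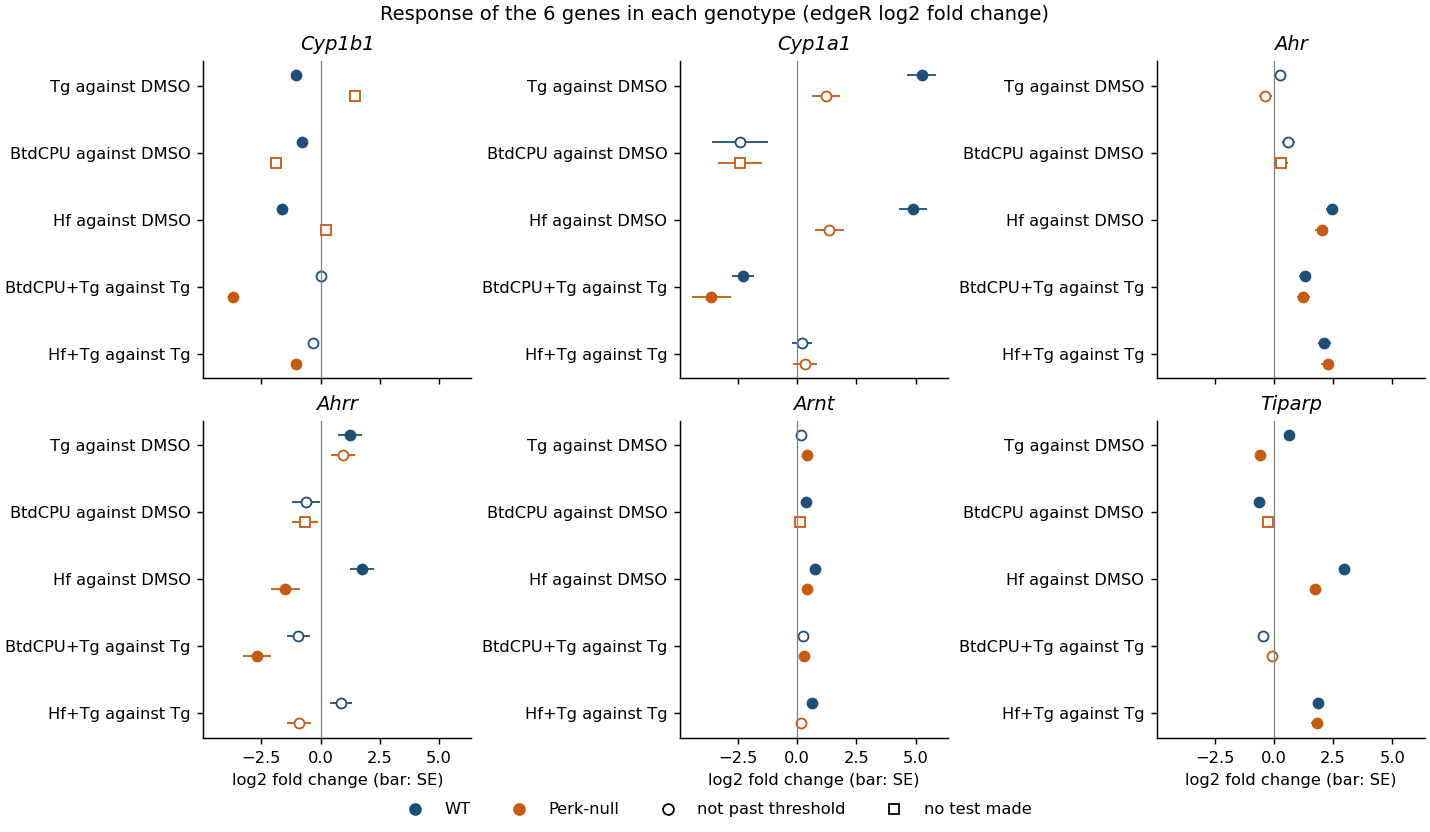
Log2 fold change (edgeR, bar: SE) of each of the 6 genes for 5 treatments in WT (blue) and Perk-null (orange) cells. Filled circles passed an adjusted p of 0.05, open circles did not, and open squares are values given without a test.

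The receptor gene Ahr was raised by Hf in both genotypes and by BtdCPU on top of Tg, and Tg alone did not move it past the threshold in either. In WT cells Ahr lay at 6.74, 6.66 and 7.21 CPM with DMSO and at 30.1, 31.1 and 52 CPM with Hf. Every Hf library lay above every DMSO library, and replicate 3 with Hf stood well above the other two. The log2 fold change was 2.46 (SE 0.267, adjusted p = 1.55e-09, edgeR). Perk-null libraries rose from 5, 4.96 and 5.78 CPM to 20.2, 16.9 and 26.2 CPM, a log2 fold change of 2.01 (SE 0.267, edgeR adjusted p = 3.31e-07). The rise in Perk-null cells was not shown to differ from that in WT cells (difference in log2 fold change -0.45, edgeR adjusted p = 0.36).

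Ahr was also higher with Hf and Tg together than with Tg alone. WT libraries with both held 32.9, 23.7 and 51.8 CPM against 6.62, 8.75 and 9.33 with Tg, a log2 fold change of 2.13 (SE 0.263, edgeR adjusted p = 8.93e-08). Perk-null libraries held 21.6, 17.1 and 20.3 CPM against 4.69, 3.25 and 4.3, a log2 fold change of 2.27 (SE 0.272, edgeR adjusted p = 2.4e-08). The groups did not overlap in either genotype.

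The Ahr values with BtdCPU were lower and less even. WT libraries with BtdCPU held 10.9, 6.97 and 13.5 CPM, and the log2 fold change over DMSO of 0.61 (SE 0.264) did not pass (edgeR adjusted p = 0.0984). Replicate 2 lay within the DMSO range, and without it the value was 0.83 (edgeR adjusted p = 0.02). With BtdCPU and Tg together, WT libraries held 17.7, 13.9 and 29.6 CPM, a log2 fold change over Tg of 1.30 (SE 0.259, edgeR adjusted p = 0.00626). That call was lost without replicate 3 of BtdCPU+Tg, the highest library (0.93, edgeR adjusted p = 0.145), without replicate 1 of Tg (1.17, edgeR adjusted p = 0.0622), and when only the compared groups were fitted (edgeR adjusted p = 0.0857). Perk-null libraries were more even, at 10.2, 9.77 and 9.21 CPM, with a log2 fold change over Tg of 1.25 (SE 0.271, edgeR adjusted p = 0.000476). With BtdCPU alone they held 6.13, 6.87 and 6.46 CPM, above the DMSO libraries without overlap. The log2 value of 0.31 (SE 0.269) is given as a description with no test.

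Arnt, the partner that the receptor shares with hypoxia-inducible factors, had the narrowest range of the 6 genes but was higher in Perk-null than in WT cells. WT DMSO libraries held 64.5, 68.1 and 62.6 CPM and Perk-null DMSO libraries 92.1, 92.4 and 98.4. The log2 difference was 0.54 (SE 0.0833, edgeR adjusted p = 2.71e-06). With Tg the same difference was 0.80 (SE 0.0834, edgeR adjusted p = 8.22e-10), from 72.7 ± 4.21 CPM in WT to 126 ± 6.19 in Perk-null libraries (SD, n = 3).

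Hf raised Arnt in both genotypes. The WT mean went from 65.1 ± 2.78 to 109 ± 5.10 CPM (SD, n = 3), a log2 fold change of 0.74 (SE 0.0835, edgeR adjusted p = 3.09e-09). The Perk-null mean went from 94.3 ± 3.54 to 126 ± 6.06 CPM (SD, n = 3), with 0.42 (SE 0.0829, edgeR adjusted p = 0.000104). The difference between these rises was -0.32 (SE 0.117, edgeR adjusted p = 0.0339) and was lost when counts were scaled by library size only (-0.21), with no filter on low counts (-0.25), when only the compared groups were fitted (-0.33), and without any 1 of 8 of the 12 libraries. Hf added to Tg raised Arnt in WT cells by 0.63 (SE 0.0832, edgeR adjusted p = 3.16e-07), and in Perk-null cells the value of 0.14 (SE 0.0826) missed it (edgeR adjusted p = 0.154). That difference of -0.49 passed (SE 0.117, edgeR adjusted p = 0.00161) and was lost with no filter on low counts (-0.41, edgeR adjusted p = 0.0806).

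Tg raised Arnt in Perk-null cells by 0.42 on the log2 scale (SE 0.0829, edgeR adjusted p = 0.000193), whereas the value in WT cells, 0.16 (SE 0.0833), did not pass (edgeR adjusted p = 0.115). The difference between them, 0.26, did not pass either (edgeR adjusted p = 0.0774). BtdCPU raised Arnt in WT cells from 65.1 ± 2.78 to 83.5 ± 7.79 CPM (SD, n = 3), with a log2 fold change of 0.36 (SE 0.0833, edgeR adjusted p = 0.00201). That call was lost when only the compared groups were fitted (edgeR adjusted p = 0.0893). The highest Arnt group of all was Perk-null BtdCPU+Tg at 145, 151 and 162 CPM, 0.27 above Tg on the log2 scale (SE 0.0826, edgeR adjusted p = 0.00957). With no filter on low counts that value was 0.31 (edgeR adjusted p = 0.0544). In WT cells the same addition gave 0.26 (SE 0.0831, edgeR adjusted p = 0.09), and with replicate number as a block 0.26 (SE 0.0696, edgeR adjusted p = 0.0126).

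Ahrr, the repressor, was counted so sparsely that each value rests on few reads. WT libraries held 14, 6 and 7 counts with DMSO, 22, 18 and 46 with Hf and 33, 39 and 48 with Hf and Tg. Hf raised it in WT cells by 1.73 on the log2 scale (SE 0.506, edgeR adjusted p = 0.00341), a call kept with no filter on low counts and lost without replicate 3 of Hf (1.15, edgeR adjusted p = 0.0652). In Perk-null cells Ahrr went the other way with Hf, from 7, 18 and 9 counts to 8, 2 and 2. That change of -1.48 (SE 0.598, edgeR adjusted p = 0.046) was lost with no filter on low counts, with the replicate number as a block, and without any 1 of 4 libraries (-2.43 to -0.97 over all libraries left out in turn). The difference between the genotypes in the Hf response, -3.20 (SE 0.782), passed (edgeR adjusted p = 0.00189).

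Ahrr passed the threshold with Tg in WT cells and, downwards, with BtdCPU added to Tg in Perk-null cells. WT Tg libraries held 17, 18 and 31 counts, a log2 fold change of 1.24 (SE 0.512, edgeR adjusted p = 0.0452) that was lost with the block, with no filter, and without any 1 of 5 of the 6 libraries. Perk-null Tg libraries held 23, 23 and 20 counts, and the value of 0.94 (SE 0.499) did not pass (edgeR adjusted p = 0.172). With BtdCPU and Tg they held 2, 1 and 7 counts, a fall of -2.68 from Tg (SE 0.584, edgeR adjusted p = 0.000526). WT libraries under the same 2 compounds held 7, 18 and 12 counts, and the value of -0.93 (SE 0.495) did not pass (edgeR adjusted p = 0.343).

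Cyp1a1, the classical receptor target, was nearly silent in WT cells with DMSO and was raised by Tg and by Hf there. WT DMSO libraries held 1, 2 and 15 counts, so replicate 3 alone held most of them. With Tg they held 181, 265 and 279 counts, or 5.6, 7.16 and 7.74 CPM. All 3 Tg libraries lay far above all 3 DMSO libraries. The ratio of the summed counts, scaled for depth, was 39.3 (95% exact interval 24.7 to 66.7, for counting error only), and the fitted log2 fold change was 5.25 (SE 0.596, edgeR adjusted p = 1.3e-08). Cyp1a1 passed here, and with Hf, also where no filter on low counts was applied. Without WT DMSO replicate 3 the value was 7.22, the highest of a range that began at 4.73 over the libraries left out in turn.

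Hf brought Cyp1a1 to 4.4, 2.49 and 9.03 CPM in WT cells, from 0.183 ± 0.244 CPM (SD, n = 3) with DMSO. The log2 fold change was 4.88 (SE 0.597, edgeR adjusted p = 1.63e-08). WT cells with Hf and Tg held 6.35, 5.28 and 12.1 CPM, which overlapped the Tg libraries, and the log2 fold change over Tg of 0.21 (SE 0.421) did not pass (edgeR adjusted p = 0.716). As for Ahr and Tiparp, replicate 3 was the highest library of both Hf groups.

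BtdCPU stood apart from the other compounds for Cyp1a1. WT libraries with BtdCPU held 3, 0 and 0 counts, so none exceeded the floor of 3 counts in a library. Against 18 counts with DMSO the ratio was 5.74 (95% exact interval 1.68 to 30.4, for counting error only), and the log2 change of -2.40 (SE 1.18) did not pass (edgeR adjusted p = 0.146). It ran from -5.70, without WT BtdCPU replicate 1 (which leaves that group at 0 counts, so that the fitted value is no bound), to -0.43, without WT DMSO replicate 3. DESeq2 gave -2.55 (adjusted p = 0.0433) and edgeR with no filter on low counts -2.41 (adjusted p = 0.0184). Added to Tg, BtdCPU lowered Cyp1a1 in WT cells from 6.83 ± 1.11 to 1.39 ± 0.330 CPM (SD, n = 3), a log2 change of -2.29 (SE 0.46, edgeR adjusted p = 0.00713). That call was lost without replicate 3 of BtdCPU+Tg (-2.34, edgeR adjusted p = 0.0546).

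Cyp1a1 values with Tg and with Hf in Perk-null cells were far lower than in WT cells. DMSO libraries held 8, 6 and 19 counts, Tg libraries 28, 25 and 25, and Hf libraries 27, 37 and 21. The log2 fold change was 1.22 with Tg (SE 0.6, edgeR adjusted p = 0.133) and 1.36 with Hf (SE 0.595, edgeR adjusted p = 0.0652), so neither passed. The Hf value did pass with DESeq2 (1.37, adjusted p = 0.0281), with no filter on low counts, when only the compared groups were fitted, and without Perk-null DMSO replicate 3 (2.00). The Tg value passed with no filter (1.19, edgeR adjusted p = 0.0184) and when only the compared groups were fitted (1.19, edgeR adjusted p = 0.0425). The response differed from that of WT cells by -4.02 on the log2 scale with Tg (SE 0.888, edgeR adjusted p = 0.000518) and by -3.52 with Hf (SE 0.886, edgeR adjusted p = 0.00244). Leaving out each library in turn gave -6.00 to -3.39 with Tg and -5.49 to -2.83 with Hf, the lowest of each without WT DMSO replicate 3. With Tg, Perk-null libraries lay below WT libraries by -3.28 on the log2 scale (SE 0.494, edgeR adjusted p = 8.93e-07).

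With BtdCPU and Tg together, Perk-null libraries held 0, 4 and 2 counts of Cyp1a1. The summed Tg counts of 78 against 6 gave a ratio of 13 (95% exact interval 5.72 to 36.5, for counting error only), and the log2 change was -3.62 (SE 0.808, edgeR adjusted p = 0.000678). With BtdCPU alone they held 4, 2 and 0 counts. The 3 lowest Cyp1a1 means were those of WT BtdCPU, Perk-null BtdCPU and Perk-null BtdCPU+Tg, whereas WT BtdCPU+Tg lay above both DMSO groups.

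Cyp1b1, an enzyme that oxidises oestrogens and polycyclic hydrocarbons, was highest in WT cells with DMSO and fell with each of the 3 compounds there. WT DMSO libraries held 34.9, 34.5 and 28.4 CPM. With Tg they held 15, 18 and 15.3 CPM, a log2 change of -1.02 (SE 0.187, edgeR adjusted p = 3.89e-05). With BtdCPU they held 15, 24 and 17.9 CPM, a change of -0.78 (SE 0.186, edgeR adjusted p = 0.00247). The lowest WT levels, 9.94, 8.27 and 14 CPM, were with Hf, a change of -1.61 (SE 0.191, edgeR adjusted p = 9.56e-09). No treated library reached the lowest DMSO library in these 3 comparisons.

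Adding a further compound to Tg did not move Cyp1b1 past the threshold in WT cells. BtdCPU and Tg together gave 15.2, 15.3 and 18.5 CPM, within 0.02 of Tg on the log2 scale (SE 0.187, edgeR adjusted p = 0.983). Hf and Tg gave 13, 11.1 and 14.5 CPM, a value of -0.33 (SE 0.188) that did not pass (edgeR adjusted p = 0.158).

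Perk-null cells had a different pattern of Cyp1b1. DMSO libraries held 7.29, 8.32 and 8.63 CPM, 4.03-fold below WT DMSO, and Tg libraries held 23.5, 19.6 and 22.7 CPM, 2.71-fold above Perk-null DMSO. BtdCPU libraries held 1.69, 2.48 and 2.5 CPM, 3.63-fold below DMSO, which is the fall by which the gene was chosen. Hf libraries held 9.09, 7.88 and 11.2 CPM and overlapped DMSO. The corresponding log2 values were -2.01 (SE 0.194), 1.44 (SE 0.192), -1.86 (SE 0.211) and 0.21 (SE 0.193), all given as a description.

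The libraries with Tg are not part of the comparison by which the gene was chosen. Perk-null libraries with BtdCPU and Tg held 1.69, 2.21 and 1.22 CPM, against 23.5, 19.6 and 22.7 with Tg alone. The groups were far apart, with a 12.9-fold fall, a log2 change of -3.69 (SE 0.22, edgeR adjusted p = 9.15e-14). Leaving out each library in turn gave -3.88 to -3.46. The change differed from that of WT cells by -3.70 (SE 0.286, edgeR adjusted p = 1.66e-10), with -3.89 to -3.47 over the libraries left out. The Perk-null level with BtdCPU and Tg overlapped that with BtdCPU alone.

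Hf added to Tg lowered Cyp1b1 in Perk-null cells by a smaller amount, to 10.9, 9 and 12 CPM. The log2 change was -1.05 (SE 0.189, edgeR adjusted p = 2.18e-05). The difference from WT cells, -0.72 (SE 0.266, edgeR adjusted p = 0.0366), was lost without any 1 of 8 of the 12 libraries (-0.81 to -0.56 over all) and when counts were scaled by library size only (-0.68, edgeR adjusted p = 0.0561). Under Tg, Perk-null libraries lay above WT libraries by 0.45 on the log2 scale (SE 0.186, edgeR adjusted p = 0.036). That call was lost with RLE size factors (0.41, edgeR adjusted p = 0.0549), and without WT Tg replicate 1 or 3 or Perk-null Tg replicate 1 or 3 (0.39 to 0.53 over all).

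Over the 12 groups the order of Cyp1b1 means was WT DMSO, Perk-null Tg, WT BtdCPU, WT BtdCPU+Tg, WT Tg, WT Hf+Tg, WT Hf, Perk-null Hf+Tg, Perk-null Hf, Perk-null DMSO, Perk-null BtdCPU and Perk-null BtdCPU+Tg. Libraries of neighbours failed to overlap at only 3 of 11 steps: below WT DMSO, below WT Tg, and below Perk-null DMSO. For Cyp1a1, the order began with WT Hf+Tg, WT Tg and WT Hf and ended with Perk-null BtdCPU+Tg, Perk-null BtdCPU and WT BtdCPU, and neighbours failed to overlap at 2 of 11 steps. The numbers of such steps were 3 for Ahr, 4 for Tiparp, 2 for Arnt and 1 for Ahrr.

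**Figure D4:**
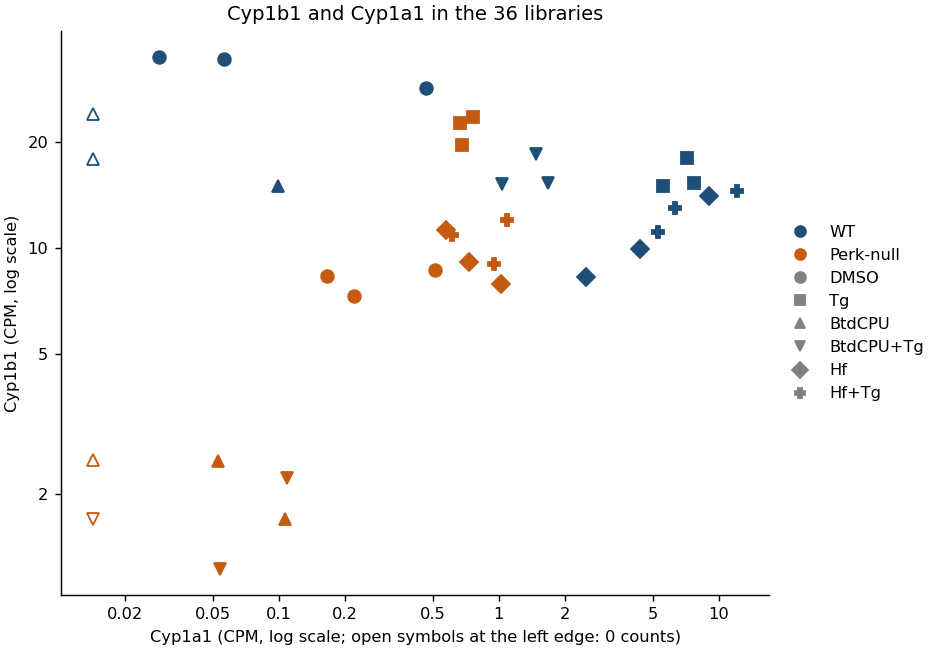
Cyp1b1 against Cyp1a1 CPM, both on log axes, in the 36 libraries, coloured by genotype and shaped by treatment, with open symbols for libraries with 0 Cyp1a1 counts. The pair share low levels in Perk-null BtdCPU and BtdCPU+Tg libraries, whereas WT DMSO libraries are highest for Cyp1b1 and among the low ones for Cyp1a1.

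The 2 P450 genes of the receptor battery thus moved in opposite directions in WT cells with Tg and with Hf, Cyp1a1 up and Cyp1b1 down. Across the 12 group means of log2 CPM their Pearson r was 0.36, given as a description over points that share libraries and scaling. Cyp1b1 showed r of 0.03 with Ahr, 0.07 with Tiparp, 0.46 with Ahrr and -0.55 with Arnt. Tiparp showed 0.82 with Ahr and 0.73 with Cyp1a1, and Ahrr showed 0.80 with Cyp1a1.

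Tiparp, which ADP-ribosylates the receptor, was raised most by Hf. WT libraries held 49.7, 42.3 and 60.8 CPM with DMSO and 360, 295 and 541 with Hf, and Perk-null libraries 61, 62.4 and 56.7 with DMSO and 193, 154 and 253 with Hf. The rise was 7.84-fold in WT cells, a log2 fold change of 2.97 (SE 0.225, edgeR adjusted p = 5.76e-13). It was 3.32-fold in Perk-null cells, 1.73 on the log2 scale (SE 0.215, edgeR adjusted p = 9.22e-08). The Perk-null rise was the smaller by a tested difference of -1.23 (SE 0.297, edgeR adjusted p = 0.00164). On top of Tg, Hf raised Tiparp by 1.88 in WT (SE 0.215, edgeR adjusted p = 2.35e-08) and by 1.80 in Perk-null cells (SE 0.216, edgeR adjusted p = 2.41e-08), and the difference of -0.08 did not pass (edgeR adjusted p = 0.877).

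Tg itself moved Tiparp in opposite directions in the 2 genotypes. WT Tg libraries held 68.4, 73.2 and 94.1 CPM, a log2 fold change of 0.63 (SE 0.211, edgeR adjusted p = 0.0151), lost without WT Tg replicate 3 (0.47) or WT DMSO replicate 2 (0.51). Perk-null Tg libraries held 44.7, 36.1 and 39.5 CPM, a change of -0.58 (SE 0.212, edgeR adjusted p = 0.0387), lost without any 1 of 4 libraries (-0.67 to -0.55 over all). The difference of -1.21 between the genotypes passed (SE 0.299, edgeR adjusted p = 0.00168). Under Tg, Perk-null libraries lay below WT libraries by -0.97 (SE 0.213, edgeR adjusted p = 0.000197).

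BtdCPU lowered Tiparp in WT cells, to 32.4, 30 and 35.8 CPM. The change of -0.64 (SE 0.213, edgeR adjusted p = 0.0293) was lost without any 1 of 5 of the 6 libraries (-0.76 to -0.49 over all). With BtdCPU and Tg, WT libraries held 48.6, 50.3 and 72.7 CPM and overlapped Tg, with a change of -0.46 (SE 0.21, edgeR adjusted p = 0.256), and with the replicate number as a block -0.47 (SE 0.127, edgeR adjusted p = 0.013). Perk-null libraries with BtdCPU and Tg held 38.7, 37.8 and 38 CPM, close to Tg alone (-0.07, SE 0.212, edgeR adjusted p = 0.836). Tiparp overlaps the non-coding gene 4931440P22Rik in RefSeq, whose mean went from 6.25 ± 1.03 to 36 ± 11 CPM (SD, n = 3) with Hf in WT cells. How the authors' counting treated overlapping reads is not given in the sources used here, so each of these counts may hold reads of the other.

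Between the lines with DMSO, Arnt alone of the 5 genes tested passed, as higher in Perk-null cells, against 24.6% of all genes higher and 24.9% lower. Ahr (log2 difference -0.39, edgeR adjusted p = 0.242), Ahrr (0.24, edgeR adjusted p = 0.748), Cyp1a1 (0.75, edgeR adjusted p = 0.428) and Tiparp (0.24, edgeR adjusted p = 0.369) did not pass. For Cyp1a1 the difference was 2.72 without WT DMSO replicate 3 (edgeR adjusted p = 0.0286), and for Ahr it passed with no filter on low counts (-0.43, edgeR adjusted p = 0.0461) and when only the compared groups were fitted (-0.40, edgeR adjusted p = 0.0398). Under Tg, 2 members were higher and 3 lower in Perk-null cells, against 31.5% of all genes higher and 34.1% lower. Ahr was among the lower, by -1.01 (SE 0.272, edgeR adjusted p = 0.00168).

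Other genes described as raised by receptor ligands were counted from a list of 15, of which 12 passed the filter, by the same edgeR test and threshold. Cyp2s1, Aldh3a1, Gsta1 and Scin had group means under 1 CPM throughout and passed the filter only through groups in which they were high. Counts and medians of this list are therefore a description. With Tg in WT cells, 4 rose and 1 fell, against 24.9% of all genes higher and 22.7% lower, with a median log2 fold change of 0.35 against 0.02 over all tested genes. Slc7a5, an amino acid transporter also driven by ATF4, went up by 2.56, and Ereg, an epidermal growth factor receptor ligand, by 1.59, while Nqo1, a quinone reductase also driven by NRF2, changed by -0.43. With Hf in WT cells 4 of 12 rose and 2 fell, near the shares of all genes called (34.7% higher, 33.4% lower), with a median of 0.15 against 0.00. Ereg (4.11), Serpinb2 (3.39) and Slc7a5 (2.16) led the rise, and Nqo1 changed by -1.47. In Perk-null cells Tg raised 3 and lowered 2, against 15.2% of all genes higher and 12.7% lower, with a median of 0.74 against 0.05: Ereg changed by -1.95 and Serpinb2 by -2.21, whereas Ugt1a6b, a glucuronosyltransferase, rose by 1.01. That median includes the weakly expressed Aldh3a1 (1.24, SE 1.09), Cyp2s1 (0.98, SE 0.692), Gsta1 (0.87, SE 1.5) and Scin (-0.14, SE 0.65), none of which passed. It is therefore no measure of a rise of the list as a whole.

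BtdCPU added to Tg in Perk-null cells raised 4 of these 12 genes and lowered 1, against 17.3% of all genes higher and 18.3% lower, with a median of 0.58 against -0.04. Slc7a5 rose by 1.73, Ugt1a6b by 1.15 and Ugt1a6a by 1.12, and Nqo1 changed by -1.37. In WT cells the same addition moved only Nqo1 past the threshold (-0.64). Between the lines with DMSO, 6 of the 12 were lower and 2 higher in Perk-null cells, against 24.6% of all genes higher and 24.9% lower and with a median of -0.72 against 0.02. Serpinb2 differed by -2.56 and Xdh, xanthine dehydrogenase, by -2.09. Gsta1 was near 0 in Perk-null cells, at 0.0179 ± 0.0311 CPM against 0.373 ± 0.11 in WT cells (SD, n = 3). Cyp2s1 was near 0 in WT cells, at 0.0294 ± 0.0286 CPM against 0.19 ± 0.116 in Perk-null cells (SD, n = 3). Both passed the filter through groups of the line in which they were higher, so the count between the lines is a description.

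**Figure D5:**
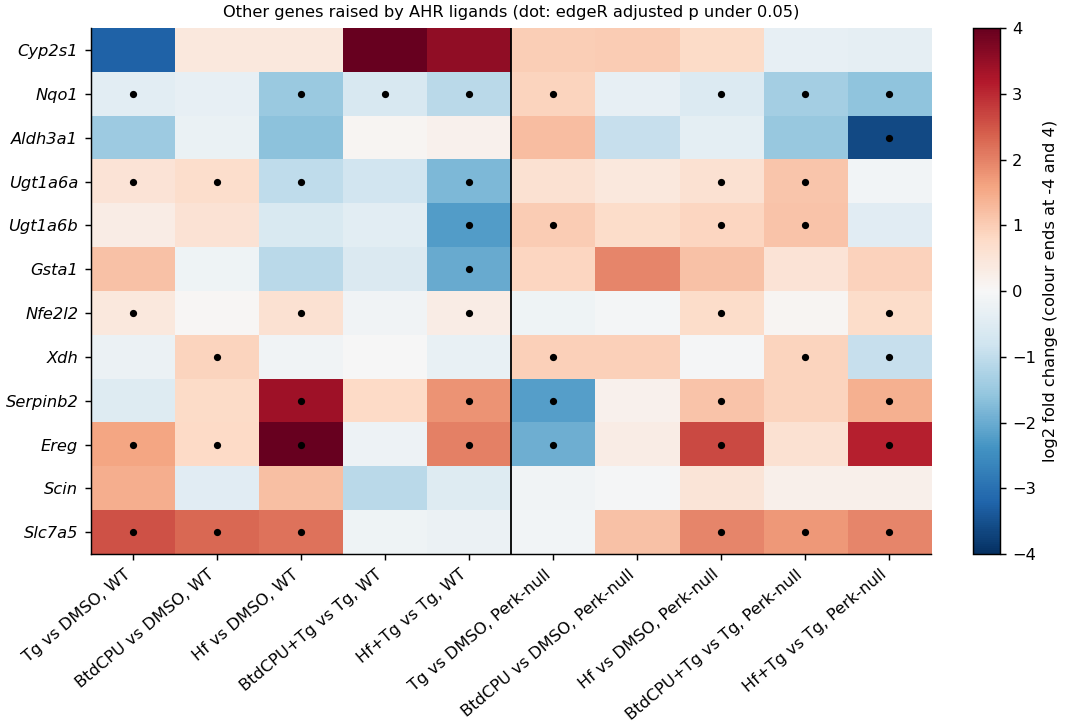
Log2 fold change (colour, ending at -4 and 4) of the 12 tested genes of the list of other receptor targets, in rows, for 5 treatments in WT and Perk-null cells, in columns, with dots for an edgeR adjusted p under 0.05 and no dots in the comparison used to choose Cyp1b1. Slc7a5 and Ereg are raised by Hf in both genotypes and Nqo1 is lowered.

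Enzymes that serve P450 catalysis or act on its products were taken as a list of 5. With BtdCPU added to Tg in Perk-null cells, 5 of 5 fell, against 18.3% of all genes lower, with a median of -0.62 against -0.04 for all genes: Cyb5a, an electron donor, by -0.99, Ephx1, the microsomal epoxide hydrolase, by -0.85, and Por, the P450 reductase, by -0.62. Tg alone had raised 2 of the 5 there and lowered 0, against 15.2% of all genes higher and 12.7% lower. Ephx1 lay at 15.5 ± 1.13 CPM with DMSO, 38.5 ± 2.16 with Tg and 21.3 ± 1.02 with both (SD, n = 3). Cyb5a lay at 48.8 ± 6.57, 77.1 ± 4.1 and 38.8 ± 3.81 CPM (SD, n = 3). Hf added to Tg in Perk-null cells lowered 3 of 5, against 27.5% of all genes, with a median of -0.73 against -0.01. With Hf in WT cells 3 of 5 fell, against 33.4% of all genes (Cyb5a -1.82, Ephx1 -0.95, Cyb5b -0.73), while Cyp1a1 rose there. Of 89 other P450 genes only 22 passed the filter. With BtdCPU added to Tg in Perk-null cells 2 of the 22 rose and 2 fell, against 17.3% of all genes higher and 18.3% lower, with a median of -0.01. Cyp39a1, an oxysterol hydroxylase, lay at 8.03 ± 1.1 CPM with DMSO in Perk-null cells (SD, n = 3). With BtdCPU added to Tg it changed by -1.41, from 17.9 ± 2.63 to 6.75 ± 0.356 CPM (SD, n = 3), and Cyp4f16 by -0.52. The other 2 were weakly expressed and highest of the 12 groups there, so only levels are given: Cyp2c44, from 0.217 ± 0.11 to 1.3 ± 0.528 CPM, and the retinoic acid hydroxylase Cyp26a1, from 0.19 ± 0.0991 to 0.928 ± 0.141 CPM (SD, n = 3).

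Partners of the receptor were measured in 9 of 9 cases. With Hf in WT cells 4 of 9 rose and 2 fell, against 34.7% of all genes higher and 33.4% lower, with a median of 0.07 against 0.00: Ncoa1, a coactivator, rose by 1.38 and Hsp90ab1, a cytosolic chaperone, changed by -0.50. With BtdCPU added to Tg in Perk-null cells 2 of 9 rose, against 17.3% of all genes (Ncoa1 0.54, Ncoa3 0.48). The second ARNT gene, Arnt2, was lower in Perk-null than WT cells with DMSO (-2.62). Of 12 other bHLH-PAS factors 8 were tested, and with Hf in WT cells 4 rose and 1 fell, against 34.7% of all genes higher and 33.4% lower, with a median of 0.96 against 0.00. The 8 include weakly expressed genes such as Npas2, at 0.0656 ± 0.114 CPM with DMSO and 0.305 ± 0.137 with Hf in WT cells (SD, n = 3). Count and median are therefore a description. Arntl and Clock, the partners of the circadian clock, rose by 2.31 and 1.32 and Hif1a by 0.66.

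Among 10566 genes with a mean log2 CPM of at least 2, those whose 12 group means most resembled Cyp1b1 were Six4 (Pearson r of 0.87), Vcan (0.86), Gm31365 (0.85), Fam114a2 (0.84) and Tmem165 (0.83). The most opposed were Naa16 (-0.87), Prpf40b (-0.87) and Dpp7 (-0.86). Six4 encodes a homeodomain factor and Vcan the matrix proteoglycan versican. Nearest to Cyp1a1 were Ccar1 (0.94), Otud5 (0.93) and Mbd1 (0.93), and nearest to Ahr were Zdhhc21, Mef2a and Zeb2 (0.97 each). H2afx (0.90), Mapk8ip1 (0.89) and Chfr (0.89) were nearest to Ahrr, and Atp6v0b (0.94), Mt1 (0.94) and Bbs5 (0.93) to Arnt. Tiparp was nearest to the overlapping 4931440P22Rik and to Rhbdd2 and Cops3 (0.99 each). These are descriptions over 12 points that share libraries, and those of Cyp1b1 include the Perk-null DMSO and BtdCPU groups by which it was chosen. Pearson r does not measure the size of a change. Group levels ran from 1.7 to 32.6 CPM for Cyp1b1 but from 5.61 to 11 for Six4. They ran from 32.7 to 398 CPM for Tiparp but from 199 to 390 for Cops3.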

How the data were processed

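Total RNA from mouse embryonic fibroblasts was extracted and turned into strand-specific libraries after ribosomal depletion and mRNA selection, per the labels' protocols. The authors deposited 1 table of estimated counts per gene symbol for 36 libraries. A 0 is stored as 0.025 (50.6% of values), and 2.69% of the rest carry a fraction. The build GRCm39 and the tool DESeq are named in the submitters' processing notes. The aligner, counter, annotation and strand setting are not given in the sources used here.

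Expected counts were rounded, 27 entries named by a number (0.206% to 0.278% of counts) were left out, and 86 entries sharing 39 symbols were summed. The 16065 genes passing filterByExpr were fitted in edgeR 4.0.16 (R 4.3.3) with TMM scaling, 12 group means over all libraries and the robust quasi-likelihood test. Adjusted p-values are Benjamini-Hochberg over those genes in each of 17 comparisons, with a threshold of 0.05. CPM are TMM-scaled. Intervals of ratios are exact at 95%, and the floor is 3 counts in a library. The fit was tested on simulated data. Lowest chi-square per degree of freedom between replicates was 9.06, over the pairs within each group. The highest was 116 in WT BtdCPU, and 37.9 among the Perk-null groups. The spread of each gene is shared by both lines, so tests within WT cells also draw on the closer Perk-null libraries.

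Replicate numbers appear in the labels. Same-numbered WT libraries deviated together, each r over 0.1, for BtdCPU+Tg with Tg (0.16, 0.31, 0.34) and Hf+Tg with Tg (0.16, 0.20, 0.31), so the pairing holds there by these correlations.

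The members and lists were chosen with earlier results of these data known. Named genes are the 6 members, Eif2ak3, up to 4 genes per list with the largest change among those called (fewer where counts were near 0), and the genes with the highest or lowest r; 1 listed gene is not reported here. Alternatives were RLE, library-size scaling, no filter, DESeq2 1.42.0, a replicate block, compared groups only, no robust estimation, leaving out each library, and unscaled CPM.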

Additional observations from a re-analysis of the deposited data

Results flagged for a closer look

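Responses that differed between the genotypes by the interaction test (edgeR, adjusted p under 0.05, Perk-null minus WT, log2 scale) were as follows, with no explanation weighed. Cyp1b1 differed by -3.70 for BtdCPU added to Tg and by -0.72 for Hf added to Tg. The call for Hf added to Tg was lost with library size only (-0.68, edgeR adjusted p = 0.0561) and without single libraries, as given above. Cyp1a1 differed by -4.02 for Tg (-6.00 to -3.39 with each library left out) and by -3.52 for Hf (-5.49 to -2.83). Ahrr, at few counts, differed by -3.20 for Hf and by -1.77 for Hf added to Tg. The latter call was lost with no filter on low counts (-1.70, edgeR adjusted p = 0.112) and without any 1 of 10 of the 12 libraries. Arnt differed by -0.32 for Hf and by -0.49 for Hf added to Tg. The Hf call was lost in the settings given above, such as library size only (-0.21, edgeR adjusted p = 0.16), and without single libraries. The call for Hf added to Tg was lost with no filter on low counts (-0.41, edgeR adjusted p = 0.0806). Tiparp differed by -1.21 for Tg and by -1.23 for Hf. Groups of 3 libraries were not searched for outliers.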

How the results depend on the processing

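Of the 10 comparisons of Cyp1b1 that were tested, 2 changed call with all libraries in the fit. Perk-null against WT under Tg gave 0.41 with RLE size factors, and the genotype difference for Hf added to Tg gave -0.68 with library size only. Leaving out each library in turn gave 0.39 to 0.53 and -0.81 to -0.56 for these, -0.09 to 0.09 for BtdCPU added to Tg in WT cells, which changed sign, -1.15 to -0.97 for Tg, -0.99 to -0.64 for BtdCPU and -1.89 to -1.45 for Hf in WT cells. Values near 0 changed sign elsewhere with all libraries: the genotype difference for BtdCPU in Cyp1a1 (0.06 with library size only, 0.06 with DESeq2) and in Ahrr (0.03 with library size only), that for BtdCPU added to Tg in Ahr (0.03 with the replicate block) and Arnt (-0.06 with library size only), and Ahrr in Perk-null against WT under Tg (0.03 with the replicate block). With a library left out, signs changed for Cyp1a1 in Hf added to Tg in WT (-0.23 to 0.43) and in the genotype differences for BtdCPU (-1.98 to 3.29) and Hf added to Tg (-0.10 to 0.56), for Ahr in those for BtdCPU added to Tg (-0.22 to 0.36) and Hf added to Tg (-0.09 to 0.49), for Ahrr in Perk-null against WT with DMSO (-0.27 to 0.68) and Tg (-0.23 to 0.23) and in the genotype differences for Tg (-0.75 to 0.20) and BtdCPU (-0.48 to 0.47), for Arnt in that for BtdCPU added to Tg (-0.01 to 0.14), and for Tiparp in BtdCPU added to Tg in Perk-null cells (-0.10 to 0.01) and in the genotype difference for Hf added to Tg (-0.30 to 0.23). The cause was not tested.

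With the replicate block, the genes called rose from 372 to 2079 for BtdCPU added to Tg in WT, from 3571 to 5534 for BtdCPU in WT, from 577 to 1577 for BtdCPU in Perk-null cells and from 32 to 587 for its genotype difference. The block also moved past the threshold Cyp1a1 with Hf in Perk-null cells (1.36), Ahr with BtdCPU in WT (0.56), the genotype differences for Tg in Ahr (-0.62) and Arnt (0.26), and Tiparp between lines with DMSO (0.36). It ended the call of Ahrr with Tg in WT (1.19) and with Hf in Perk-null cells (-1.44). In the 2 paired comparisons it changed no member's call other than those given in the report. Elsewhere not every r was over 0.1, but WT replicates 2 and 3 did deviate together with DMSO. The values were 0.07, 0.25 and 0.29 for BtdCPU, 0.04, 0.2 and 0.28 for Tg, and 0.06, 0.15 and 0.23 for Hf. The main tests hold no block and leave this out. Fitting only the compared groups gave 23, 835, 1265 and 2 genes in that order of comparisons, DESeq2 gave 809, 877 and 156 in the first, the third and the last, and no filter gave 813 and 314 in the first and the last. Leaving out a library gave 41 to 331, 1780 to 5062, 326 to 405 and 14 to 845. Library size alone moved the median of all genes with Hf in WT from 0.00 to -0.11. Unscaled CPM moved 3 of 72 group means by more than 1 SD, to 99.0 for Arnt in WT Hf and 52.6 and 38.9 for Tiparp in Perk-null BtdCPU and BtdCPU+Tg. Counting error is wide for Ahrr, at 1 to 48 counts in a library, and for Cyp1a1 in the DMSO and BtdCPU groups.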
